A study of Homo sapiens with 6 samples.

Results

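Transcript levels after 12 h with ATP were set against those after 6 h in 1E8 and 2B4, which are subclones of PC-3M. PC-3M was derived from metastases of PC-3, a line of human prostate cancer. The arrays were chosen by their titles: 1E8 and 2B4 cells given 100 µM ATP for 12 h, and the same subclones given 100 µM ATP for 6 h. These are 4 of the 6 Illumina bead arrays of the study, 1 array for each subclone and time. The remaining arrays are 1 control without added ATP for each subclone. Their levels are given beside the ATP arrays and did not enter the main test of the time difference. They did enter the alternative fits over all 6 arrays and every fit with 1 array left out, also for the list medians below. As background, 1E8 is known for high and 2B4 for low metastatic capacity, and each is a single clone. All cells were grown in serum-containing medium. No array of untreated cells is labelled with a time, so how long the cells had ATP and how long they were in culture cannot be told apart. The question is which transcripts were lower and which were higher at the later of the ATP times.

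Extracellular ATP acts on P2X channels and on G protein-coupled P2Y receptors. Cell-surface enzymes break it down to adenosine, which has receptors and uptake routes of its own. Transcripts of chemokines, early response genes and chaperones are often made in bursts and degraded fast, so that their levels can come down within hours of a stimulus. Transcripts of metabolic enzymes and ribosomal proteins are long-lived and change slowly.

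Each array holds 34594 entries, with mean intensities between 193.0 and 193.7. An entry counted as detected above the limit, which is each array's background peak plus 3 background widths. This limit was 50.8 and 43.8 on the 1E8 and 2B4 arrays at 12 h, against 47.1 and 45.3 at 6 h. The 12 h and 6 h arrays of 1E8 correlated at r = 0.991 and those of 2B4 at r = 0.990, while ATP arrays of different subclones correlated at 0.958 to 0.966, across entries and as a description. All 6 PC-3 markers (KRT8, KRT18, KRT19, EPCAM, VIM and CD44) were above the limit on all 4 ATP arrays, with summed levels of 6718 and 6843 at 12 h, against 6553 and 6961 at 6 h. Of the markers of androgen-responsive prostate cells, KLK2, KLK3 and TMPRSS2 among them, none was above the limit on any ATP array. Of 9 markers of other cell types, PECAM1 alone was above the limit. It had 95.8 and 102 at 12 h, against 82.4 and 77.6 at 6 h, and PTPRC, CD3E and CDH5 were below 0. What these markers contribute to the differences below was not tested. In bulk RNA, fewer cells making a transcript and less transcript per cell cannot be told apart.

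Of 10224 tested entries, none passed an adjusted p of 0.05 in the comparison of 12 h with 6 h, which limma fitted with the subclone as a block and 1 residual degree of freedom. The smallest adjusted p was 0.0722. At an unadjusted p under 0.05 there were 718 entries higher at 12 h (7.02% of those tested) and 779 lower (7.62%). The same fit with a mean-variance trend, an alternative, called 106 entries higher (1.04%) and 140 lower (1.37%). All 246 had the same sign in both subclones. The fit all but requires this, because a disagreement of the subclones is its residual spread, so it is no separate support. Adding the control arrays to the fit left 0 calls, also with that trend, a combination chosen after seeing the data. The differences below are therefore given as values, and a call under the trend is named as such. A descriptive rule was used beside the test: a difference past 1.5-fold in the same direction in both subclones. It held for 28 entries higher at 12 h (0.274%) and 27 lower (0.264%), of which 13 and 13 were above the limit on all 4 arrays. Differences are on the scale of log2(intensity + 16), which understates the change of dim genes.

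In 1E8 alone, 111 entries were past 1.5-fold higher and 158 lower at 12 h; in 2B4 the counts were 176 and 161. The 28 shared higher entries are 25.2% of the 1E8 set and 15.9% of the 2B4 set. The 27 shared lower entries are 17.1% and 16.8% of these sets. Another 4 entries were past 1.5-fold in opposite directions. Over the 8637 entries above the limit on all 4 arrays, the differences of the subclones correlated at r = 0.39 (Spearman's rho 0.33), a description across genes that share arrays. Over all tested entries, 30.0% were higher in both subclones and 29.8% lower in both, and the median difference was 0.00. At the edge of the rule, CCDC9B had a smaller difference of 0.60 and fell inside, while CDKN2B with 0.57 did not. On the lower side MIEF1 (-0.60) lay inside and DNAJB1 (-0.57) outside. The entries inside were dim, with median intensities of 77.7 (higher) and 65.9 (lower) on the ATP arrays, against 202 over all tested entries.

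**Figure D1:**
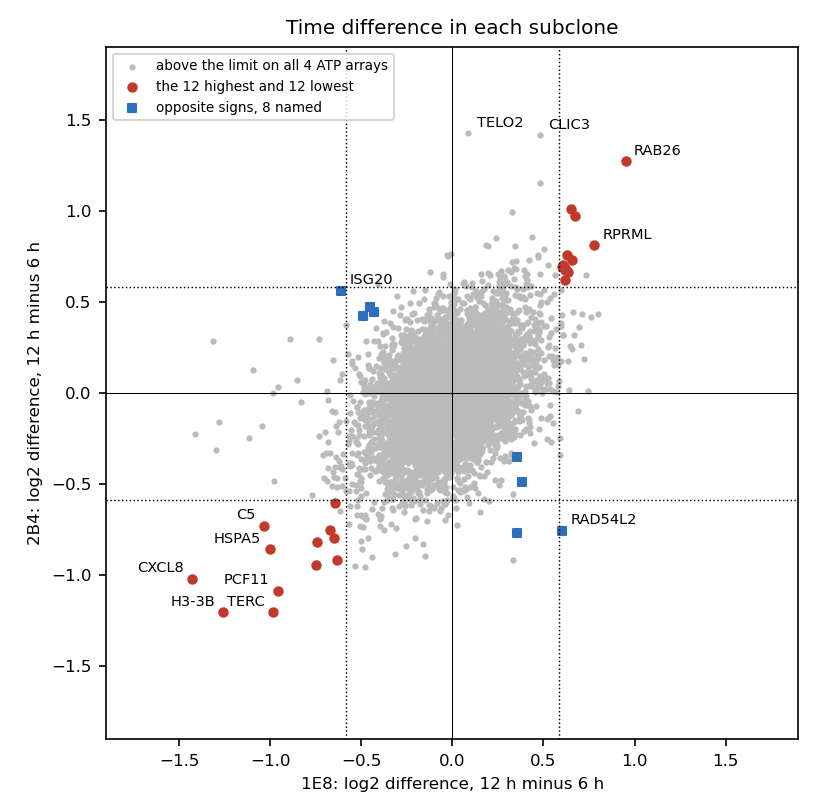
The log2 difference between ATP 12 h and ATP 6 h (12 h minus 6 h) in 1E8 (horizontal axis) and in 2B4 (vertical axis), 1 point per entry above the limit on all 4 ATP arrays, with dotted lines at 1.5-fold. The 24 red points are the 12 highest and 12 lowest named genes, from RAB26 at 0.95 and 1.27 to H3-3B at -1.26 and -1.20; the 8 blue squares differ in sign between subclones.

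The 24 genes that head the ranking by the smaller of both subclone differences had adjusted p between 0.0722 and 0.126 in the limma fit. The ranking and the tests used the same arrays, so passing is no separate support. All 24 passed with the mean-variance trend, and also when only entries above the limit on all 4 arrays were tested or when an offset of 50 was used. None of the 24 passed with an offset of 4, a floor of 50, no filter, quantile normalization, no block or all 6 arrays. The lower ones include the chemokine gene CXCL8, the endoplasmic reticulum chaperone gene HSPA5, the telomerase RNA TERC, the histone gene H3-3B and the transcription termination factor gene PCF11. The higher ones include the GTPase gene RAB26, the histone gene H4C14 and the Notch-modifying glycosyltransferase gene LFNG.

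**Figure D2:**
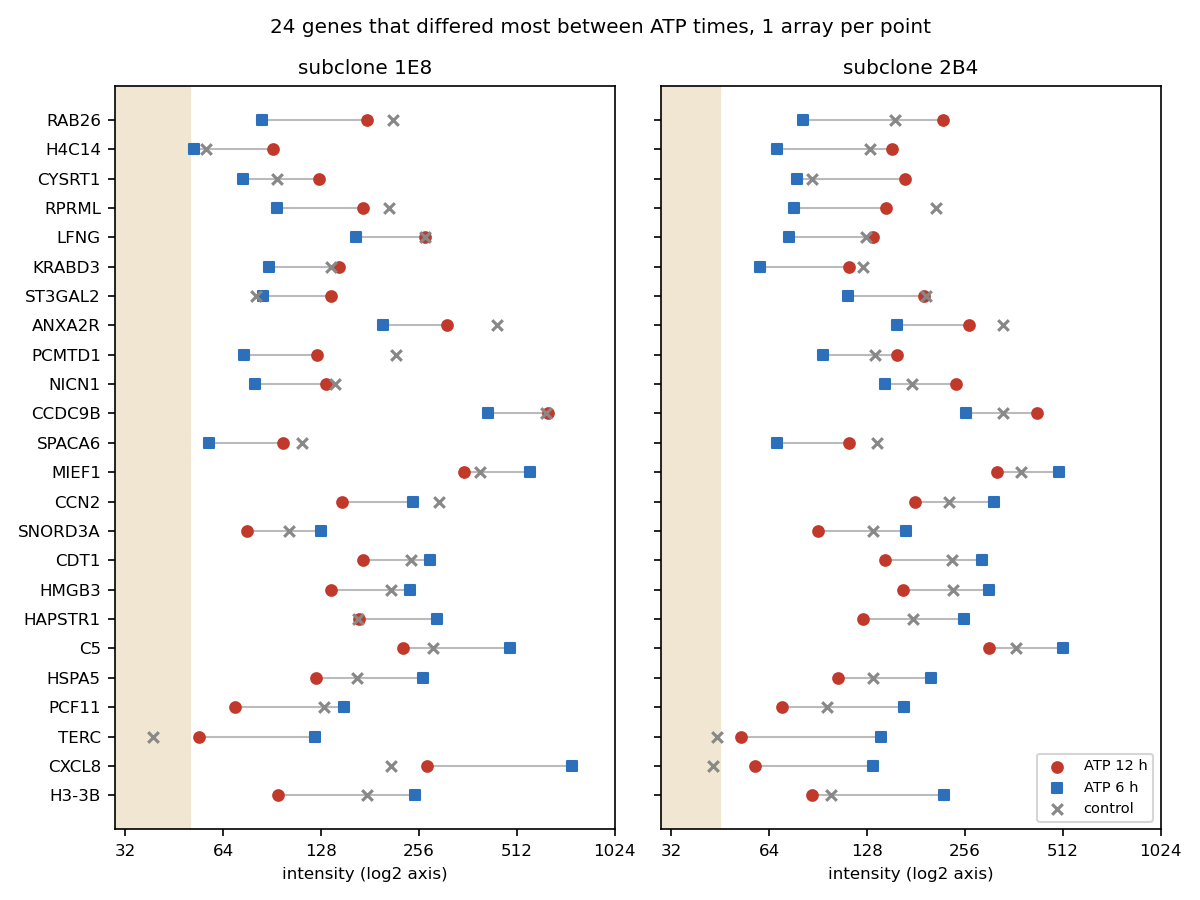
Intensity on each array (log2 axis) of the 12 highest and 12 lowest genes, in 1E8 (left) and 2B4 (right), with ATP 12 h as red circles, ATP 6 h as blue squares and the control as grey crosses; shading marks the higher detection limit of that subclone's ATP arrays. The 12 h and 6 h points are joined, and in the upper 12 genes the 12 h point lies right of the 6 h point in both subclones, as for RAB26 with 177 against 84.1 in 1E8.

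CXCL8 encodes interleukin 8, a chemokine that attracts neutrophils and is a known target of NF-kB and AP-1. Its intensity was 271 in 1E8 and 57.7 in 2B4 at 12 h, against 757 in 1E8 and 133 in 2B4 at 6 h. The control arrays had 210.4 and 43.1. Both subclones thus had lower CXCL8 at 12 h, but 1E8 at 12 h was still above 2B4 at 6 h. The mean log2 difference of the 2 subclones was -1.22 ± 0.13 (limma adjusted p = 0.102, and 5.21e-05 with the trend). Here and below, ± is the moderated standard error (SE) of the limma fit. It draws on the spread of all tested entries and is not the spread between the subclones. The RefSeq promoter of CXCL8 is shown because the NF-kB and AP-1 motifs of this textbook target lie in it. It runs from 250 bases before to 50 bases after the start of the gene, at chr4:73740319-73740618 on the + strand of GRCh38.p14. Capitals mark GGAATTTCC, whose first base lies 91 bases before the start, and TGANTCA, 137 bases before it.
CXCL8: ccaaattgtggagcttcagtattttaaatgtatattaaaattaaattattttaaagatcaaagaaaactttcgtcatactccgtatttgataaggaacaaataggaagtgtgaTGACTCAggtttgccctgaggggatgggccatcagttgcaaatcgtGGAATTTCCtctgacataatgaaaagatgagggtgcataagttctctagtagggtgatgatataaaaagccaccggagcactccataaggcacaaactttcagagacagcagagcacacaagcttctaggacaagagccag
On both strands, GGAATTTCC occurs in 0.472% of all 27305 promoters of this length and in 6 of 8 promoters of the tested NF-kB targets. TGANTCA occurs in 7.76% of all promoters and in 1 of these 8. A match is a description and not a site of binding.

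The other NF-kB targets did not move as one. Of 10 tested members, 5 were lower and 3 higher in both subclones, where 29.8% and 30.0% of all tested entries were. The list median of -0.16 came to -0.08 without the 1E8 array at 12 h, -0.09 without that at 6 h and -0.10 without the 2B4 array at 6 h. CXCL1, another neutrophil chemokine gene, had 175 at 12 h against 377 at 6 h in 1E8, and was below the limit at 6.74 and 6.21 in 2B4. NFKBIA, which encodes the inhibitor of NF-kB, had 1011 and 962 at 12 h, against 1190 and 1022 at 6 h, a difference of -0.16. NFKB1 had 424 and 446 at 12 h, against 565 and 487 at 6 h. CCL2, a monocyte chemokine gene, differed by -0.15. IL1B, which encodes the cytokine interleukin 1 beta, lay outside the naming rule and was chosen after its values were seen. It had 31.7 and 155 at 12 h, against 3.65 and 71.3 at 6 h, so the difference was 1.12 and its sign was opposite to that of CXCL8. Only the 2B4 arrays were above the limit for IL1B.

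Among 18 tested immediate early and AP-1 genes, 15 were lower on average at 12 h, beside 49.7% of all tested entries. In both subclones 8 were lower and 1 was higher, where 29.8% and 30.0% of all tested entries were. An unadjusted p under 0.05 was reached by 3, all lower, beside 7.62% of all entries. Their median was -0.13, -0.08 without the 1E8 array at 12 h, -0.07 without that at 6 h, -0.20 without the 2B4 array at 6 h and -0.21 without that at 12 h. CCN2, which encodes a matricellular growth factor, had 148 and 179 at 12 h, against 246 and 314 at 6 h, and 296 and 228 in controls. Its difference was -0.71 ± 0.10 and passed with the trend (adjusted p = 0.00196). CCN1, its close relative, had 38.9 and 29.0 at 12 h, against 63.8 and 63.4 at 6 h, with 55.3 and 28.0 in controls. Among the ATP arrays CCN1 was above the limit at 6 h alone. FOSB, a subunit of AP-1, had 55.5 and 75.3 at 12 h, against 117 and 58.4 at 6 h, and thus differed in sign between subclones. MYC was the member higher in both, with 2511 and 2056 at 12 h, against 2110 and 1760 at 6 h; its controls had 3195 and 2878. IER3 and JUND differed by -0.27 and -0.22.

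HSPA5 encodes BiP, the main Hsp70 of the endoplasmic reticulum and a marker of the unfolded protein response. Its intensity was 124 and 104 at 12 h in 1E8 and 2B4, against 264 and 202 at 6 h. Controls had 165 and 134. Both 12 h arrays lay below both 6 h arrays and below both controls. The difference was -0.93 ± 0.10 (limma adjusted p = 0.111, and 0.000426 with the trend). The HSPA5 promoter is shown because it carries the ER stress element, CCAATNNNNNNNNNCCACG, in capitals and 66 bases before the start. It lies at chr9:125241294-125241593 on the - strand of GRCh38.p14.
HSPA5: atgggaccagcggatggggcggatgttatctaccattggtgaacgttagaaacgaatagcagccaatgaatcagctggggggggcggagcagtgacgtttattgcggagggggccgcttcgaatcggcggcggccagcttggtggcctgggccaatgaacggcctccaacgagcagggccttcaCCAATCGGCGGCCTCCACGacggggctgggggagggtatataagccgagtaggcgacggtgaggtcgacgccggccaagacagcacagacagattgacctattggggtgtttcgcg
This motif occurs in 0.0806% of all promoters and in 6 of 18 promoters of the ER chaperone and unfolded protein response list. The 6 with the motif (HSPA5, XBP1, CALR, CRELD2, HSP90B1 and CANX) had a median difference of -0.05, and the 12 without it -0.03.

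HSPA5 had the largest difference of its list, ahead of DNAJC3 with -0.33. Of 18 tested members, 5 were lower and 2 higher in both subclones, where 29.8% and 30.0% of all tested entries were. Another 11 differed in sign, and the median was -0.04, with -0.16 to 0.07 when 1 array was left out. MANF, a secreted stress factor, had 3102 and 4146 at 12 h, against 4326 and 3937 at 6 h. Its co-chaperone neighbour in the list, DNAJB11, had 2015 and 2656 at 12 h, against 2862 and 2550 at 6 h. Both were lower in 1E8 (-0.48 and -0.50) and near 0 in 2B4 (0.07 and 0.06). Over the list the median was -0.16 in 1E8 and 0.08 in 2B4. CALR and PDIA6, a calcium-binding chaperone and a disulfide isomerase, differed by -0.05 and 0.06. Of 13 tested genes of the integrated stress response, 6 were higher and 5 lower in both, where 30.0% and 29.8% of all tested entries were. Their median was -0.01, and it took either sign when 1 array was left out (-0.02 to 0.07). PPP1R15A, whose product restores translation, had 284 and 257 at 12 h, against 408 and 334 at 6 h, a difference of -0.43. DDIT3, which encodes CHOP, had 222 and 153 at 12 h, against 184 and 119 at 6 h, a difference of 0.29, and ATF5 differed by -0.31.

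Genes of the cytosolic heat shock response were lower at 12 h more often than tested genes in general. Of 20 tested members, 19 had a negative mean difference, beside 49.7% of all tested entries. In both subclones 16 were lower and 1 was higher, where 29.8% and 30.0% of all tested entries were. The median was -0.23, with -0.27 in 1E8 and -0.17 in 2B4. An unadjusted p under 0.05 was reached by 9 members, all lower, beside 7.62% of all entries. None passed the adjusted threshold, and 4 passed with the trend, all lower, beside 1.37% of all entries. No test of the list as a whole was made.

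DNAJB1, an Hsp40 co-chaperone gene, had 755 and 658 at 12 h, against 1128 and 1093 at 6 h, and 813 and 1000 in controls. Its difference was -0.64 ± 0.10. HSPA8, which encodes the constitutive Hsc70, had 4287 and 4222 at 12 h, against 6203 and 5998 at 6 h, and 4633 and 5396 in controls. Its difference was -0.52 ± 0.10 (adjusted p = 0.136, and 0.00087 with the trend). For both genes the 12 h arrays lay below the 6 h arrays without overlap. BAG3, a co-chaperone gene of selective autophagy, had 1183 and 1153 at 12 h, against 1534 and 1623 at 6 h. CHORDC1, an Hsp90 partner, had 205 and 263 at 12 h, against 282 and 340 at 6 h. HSPB8 differed more in 1E8 (-0.70) than in 2B4 (-0.21). Among the ATP arrays, HSPA6, a strictly inducible Hsp70 gene, was above the limit at 6 h alone. It had 37.2 and 39.8 at 12 h, against 75.1 and 58.4 at 6 h, and was at least 1.40-fold lower. Its controls had 45.1 and 57.7, above their limits of 29.5 and 52.5. The Hsp90 genes HSP90AA1 and HSP90AB1 differed by -0.05 and -0.11, and the mitochondrial chaperone gene HSPD1 by 0.04. HSPA1A and HSPA1B are near-identical copies whose probes may share targets; they differed by -0.31 and -0.27.

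**Figure D3:**
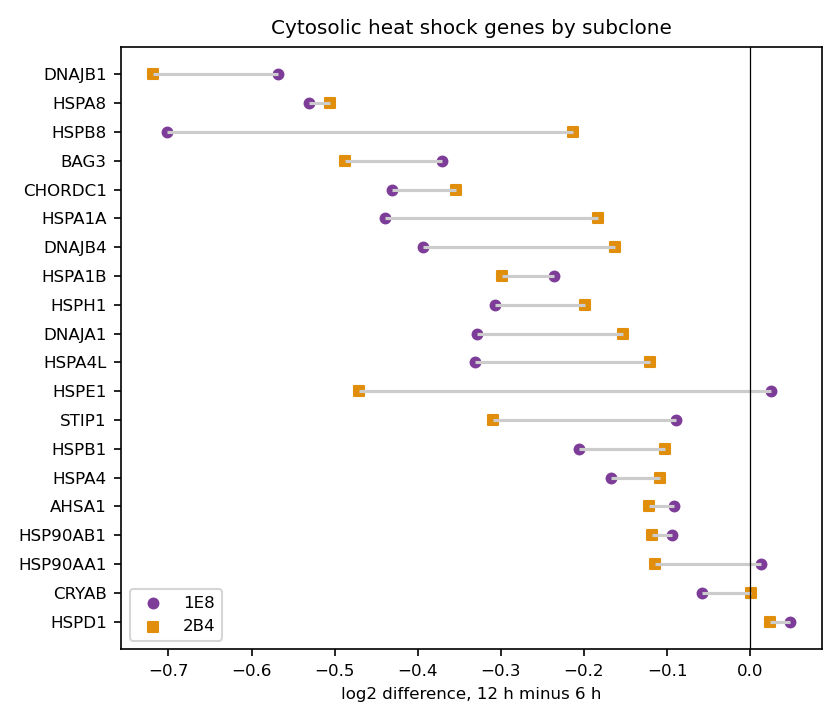
The log2 difference between ATP 12 h and ATP 6 h (12 h minus 6 h) of the 20 tested cytosolic heat shock genes, with 1E8 as purple circles and 2B4 as orange squares. Most points lie left of 0 in both subclones, from DNAJB1 with -0.57 and -0.72 to HSPD1 with 0.05 and 0.02.

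The promoters of HSPA8 and CHORDC1 are shown because both carry pairs of heat shock elements, searched as GAANNTTC or TTCNNGAA, on the - strand of GRCh38.p14 at chr11:123062087-123062386 and chr11:90223000-90223299. Capitals mark the motif, and matches that overlap run together.
HSPA8: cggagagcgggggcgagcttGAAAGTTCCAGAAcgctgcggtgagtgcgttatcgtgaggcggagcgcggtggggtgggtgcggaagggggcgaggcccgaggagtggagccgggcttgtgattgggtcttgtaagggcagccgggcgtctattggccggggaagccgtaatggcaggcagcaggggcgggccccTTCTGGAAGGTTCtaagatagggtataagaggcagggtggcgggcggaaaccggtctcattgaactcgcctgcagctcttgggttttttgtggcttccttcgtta
CHORDC1: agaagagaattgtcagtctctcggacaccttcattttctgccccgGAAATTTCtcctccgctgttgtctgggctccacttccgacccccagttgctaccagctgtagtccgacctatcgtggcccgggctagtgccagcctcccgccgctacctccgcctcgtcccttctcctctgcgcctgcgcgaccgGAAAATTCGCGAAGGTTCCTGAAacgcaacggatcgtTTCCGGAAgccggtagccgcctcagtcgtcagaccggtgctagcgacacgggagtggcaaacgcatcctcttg
In HSPA8 the motif begins 230, 225, 55 and 50 bases before the start that this promoter was set on. The RefSeq span of HSPA8 reaches chr11:123062462, so the whole window shown lies within the gene span. In CHORDC1 the motif forms a run that begins 60, 55, 50 and 45 bases before the start, with single matches at 205 and 23. This motif occurs in 13.7% of all promoters, 9.97% of the 6953 promoters of tested genes and 7 of 19 heat shock promoters. The 7 with the motif had a median difference of -0.31 and lay between -0.52 and -0.15. The 12 without it had a median of -0.21, and DNAJB1 and BAG3 were among them.

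H3-3B is a source of the replacement histone H3.3, which is deposited outside DNA replication. Its entry, deposited as H3F3B, had 94.7 and 87.0 at 12 h, against 249 and 221 at 6 h, and 177 and 99.4 in controls. Both 12 h values lay below all other values of the gene. The difference was -1.23 ± 0.10, with the smallest adjusted p of the limma fit (0.0722; 5.14e-05 with the trend). H3-3A encodes the same protein and had 5580 and 5837 at 12 h, against 5184 and 5872 at 6 h, a difference of 0.05. Other replacement histone genes differed less: H2AJ by 0.29, H2AX by -0.08 and H2AZ1 by 0.00.

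Replication-dependent histone genes lay mostly the other way. Of 64 on the array, 19 passed the filter on low values and were tested. Of these, 13 were higher and 4 lower in both subclones, where 30.0% and 29.8% of all tested entries were. An unadjusted p under 0.05 was reached by 7 in the higher direction and 2 in the lower, beside 7.02% and 7.62% of all entries. The median was 0.22, with 0.07 without the 2B4 array at 12 h and 0.04 over all 64. H4C14, deposited as HIST2H4A, had 91.0 and 153 at 12 h, against 52.0 and 67.7 at 6 h, with 56.7 and 131 in controls, a difference of 0.83 ± 0.12. H4C15 is a near-identical copy of H4C14, and their probes may not tell them apart; it was above the limit on 1 array. H2BC21 had 74.8 and 237 at 12 h, against 58.5 and 146 at 6 h. H4C3, the brightest entry named from this class, differed the other way, with 6211 and 4500 at 12 h, against 7172 and 5923 at 6 h, a difference of -0.30 (adjusted p = 0.034 with the trend). Mature messages of this class have no poly(A) tail, while the labelling kit primes from poly(A), so these probes read only what that priming copied. The H2BC21 promoter, at chr1:149886633-149886932 on the - strand of GRCh38.p14, is shown for the octamer ATTTGCAT of H2B genes, in capitals and 46 bases before the start.
H2BC21: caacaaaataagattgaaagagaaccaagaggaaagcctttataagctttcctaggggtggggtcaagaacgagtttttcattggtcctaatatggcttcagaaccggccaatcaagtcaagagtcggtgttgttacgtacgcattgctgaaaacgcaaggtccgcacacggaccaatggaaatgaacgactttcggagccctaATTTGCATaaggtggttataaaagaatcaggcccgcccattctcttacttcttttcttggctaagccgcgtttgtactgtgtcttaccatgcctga
The octamer occurs in 1.8% of all promoters and in 5 of 18 tested histone promoters. Those 5 differed by 0.14 to 0.60 and the 13 others by -0.28 to 0.83.

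TERC is the RNA template of telomerase. Its entry had 54.0 and 52.4 at 12 h, against 123 and 141 at 6 h. Controls had 39.0 and 44.4, and the 1E8 control exceeded its limit because that limit was lower, at 29.5. The 6 h arrays thus stood above all others, and the 12 h arrays lay just above their limits of 50.8 and 43.8. The difference was -1.09 ± 0.11 (adjusted p = 0.102, and 0.000599 with the trend). SNORD3A, the U3 RNA of ribosomal RNA processing, had 75.8 and 90.2 at 12 h, against 128 and 168 at 6 h, with 102 and 134 in controls, a difference of -0.72 ± 0.10. SNORD3D, a near-identical copy of it, differed by -0.51, and SNORA25 by -0.46. Of 327 short noncoding RNAs on the array, 65 passed the filter on low values, 37 of them above the limit on all 4 arrays. Of the 65, 32 were lower and 15 higher in both subclones, where 29.8% and 30.0% of all tested entries were. An unadjusted p under 0.05 was reached by 18 in the lower direction and 5 in the higher, beside 7.62% and 7.02% of all entries. The median was -0.15, with -0.06 without the 2B4 array at 12 h, -0.07 without that at 6 h and 0.00 over all 327. These RNAs also lack poly(A) tails in their mature form.

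PCF11 encodes a subunit of the machinery that cleaves pre-mRNA ends and terminates transcription. It had 69.8 and 69.9 at 12 h, against 151 and 166 at 6 h, and 131 and 96.4 in controls. The difference was -1.02 ± 0.10 (adjusted p = 0.102, and 0.000426 with the trend), and the 12 h arrays were the lowest of the 6. The 17 tested genes of 3-prime end processing had a median of -0.01 (-0.06 to 0.02 with 1 array left out). Of these, 6 were lower and 5 higher in both, where 29.8% and 30.0% of all tested entries were. CLP1, which binds PCF11, differed by -0.14, CPSF4 by -0.07 and FIP1L1 by -0.18. Among 38 mRNA decay factors, 21 were lower and 4 higher in both subclones, against the same shares of 29.8% and 30.0%. At an unadjusted p under 0.05 there were 6 lower and 1 higher, beside 7.62% and 7.02% of all entries. These decay factors had a median of -0.11, and of -0.07 without the 2B4 array at 6 h. SMG5, of nonsense-mediated decay, had 338 and 345 at 12 h, against 429 and 472 at 6 h (-0.38). PATL1, a decapping factor gene, had 274 and 315 at 12 h, against 325 and 439 at 6 h (-0.35). XRN1, the main 5-prime exonuclease gene, had 84.3 and 77.9 at 12 h, against 59.3 and 65.8 at 6 h (0.31).

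Splicing regulators differed in both directions. SRSF7, an SR protein gene, had 629 and 631 at 12 h, against 937 and 977 at 6 h, with 1032 and 919.5 in controls, a difference of -0.59 ± 0.10. SRSF5, of the same family, had 1551 and 1087 at 12 h, against 1108 and 774 at 6 h, with 1512 and 1603 in controls, a difference of 0.48 ± 0.10. Both passed with the trend (adjusted p = 0.00293 and 0.00806), in opposite directions. SRSF3 and the SR protein kinase gene CLK1 differed by -0.44 and -0.40. Of the 39 tested members of this list, 17 were lower and 8 higher in both, where 29.8% and 30.0% of all tested entries were. The list median was -0.06. It came to -0.16 without the 1E8 array at 12 h, -0.11 without that at 6 h and -0.03 without the 2B4 array at 6 h.

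Genes of G2/M and mitosis were lower at 12 h in 27 of 45 tested cases in both subclones, and higher in 9, where 29.8% and 30.0% of all tested entries were; the median was -0.18. At an unadjusted p under 0.05 there were 16 lower and 1 higher, beside 7.62% and 7.02% of all entries. With the trend 7 passed, all lower, beside 1.37% of all entries. CCNF, which encodes cyclin F, had 319 and 256 at 12 h, against 469.6 and 511 at 6 h, and 385 and 428 in controls, a difference of -0.74 ± 0.13. AURKA, the gene of a centrosomal mitotic kinase, had 703 and 608 at 12 h, against 984 and 993 at 6 h, and 601 and 526 in controls, a difference of -0.58 ± 0.11. GTSE1, a microtubule-binding partner of p53, had 115 and 134 at 12 h, against 167 and 223 at 6 h, and FAM83D 551 and 513, against 776 and 691. CCNB1, the cyclin B1 gene, lay outside the naming rule and was chosen after its values were seen. It differed by -0.44, while CCNB2 differed by 0.22. The list median was -0.09 in 1E8 and -0.25 in 2B4, and -0.06 over both without the 2B4 array at 6 h.

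The promoters of CCNF (chr16:2429197-2429496) and GTSE1 (chr22:46296620-46296919), both on the + strand of GRCh38.p14, are shown for the cell cycle homology region searched as TTTGAA on both strands. Capitals mark it 85 bases before the start of CCNF and, as its reverse complement, 26 bases before that of GTSE1.
CCNF: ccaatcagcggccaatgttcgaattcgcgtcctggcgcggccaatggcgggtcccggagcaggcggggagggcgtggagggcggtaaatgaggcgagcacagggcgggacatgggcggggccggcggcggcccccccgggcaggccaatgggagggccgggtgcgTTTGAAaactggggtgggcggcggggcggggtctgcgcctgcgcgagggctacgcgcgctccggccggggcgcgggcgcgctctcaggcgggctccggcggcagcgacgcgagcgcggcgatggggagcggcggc
GTSE1: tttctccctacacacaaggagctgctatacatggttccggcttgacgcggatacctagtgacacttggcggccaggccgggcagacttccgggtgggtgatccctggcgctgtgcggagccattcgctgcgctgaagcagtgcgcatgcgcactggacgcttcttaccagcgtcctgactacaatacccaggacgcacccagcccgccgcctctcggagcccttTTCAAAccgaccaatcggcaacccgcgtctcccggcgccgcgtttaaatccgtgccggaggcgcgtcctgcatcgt
The motif occurs in 15.4% of all promoters, 9.31% of those of tested genes and 25 of 39 G2/M promoters. The 25 with it had a median difference of -0.18, with 18 negative. The 14 without it had a median of -0.04, with 8 negative, where 49.7% of all tested entries were negative.

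Genes of G1/S and DNA replication had a median of 0.04 (0.01 to 0.07 with 1 array left out). Of 43 tested, 13 were higher (30.2%) and 11 lower (25.6%) in both subclones, beside 30.0% and 29.8% of all tested entries. CDT1, the licensing factor that loads the replicative helicase, had the lowest difference among them. It had 173 and 145 at 12 h, against 277 and 288 at 6 h, and 241 and 234 in controls, a difference of -0.78 ± 0.11. PRIM1 and POLA2, subunits of DNA polymerase alpha-primase, differed by 0.29 and 0.24, and RRM2, of ribonucleotide reductase, by -0.28.

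**Figure D4:**
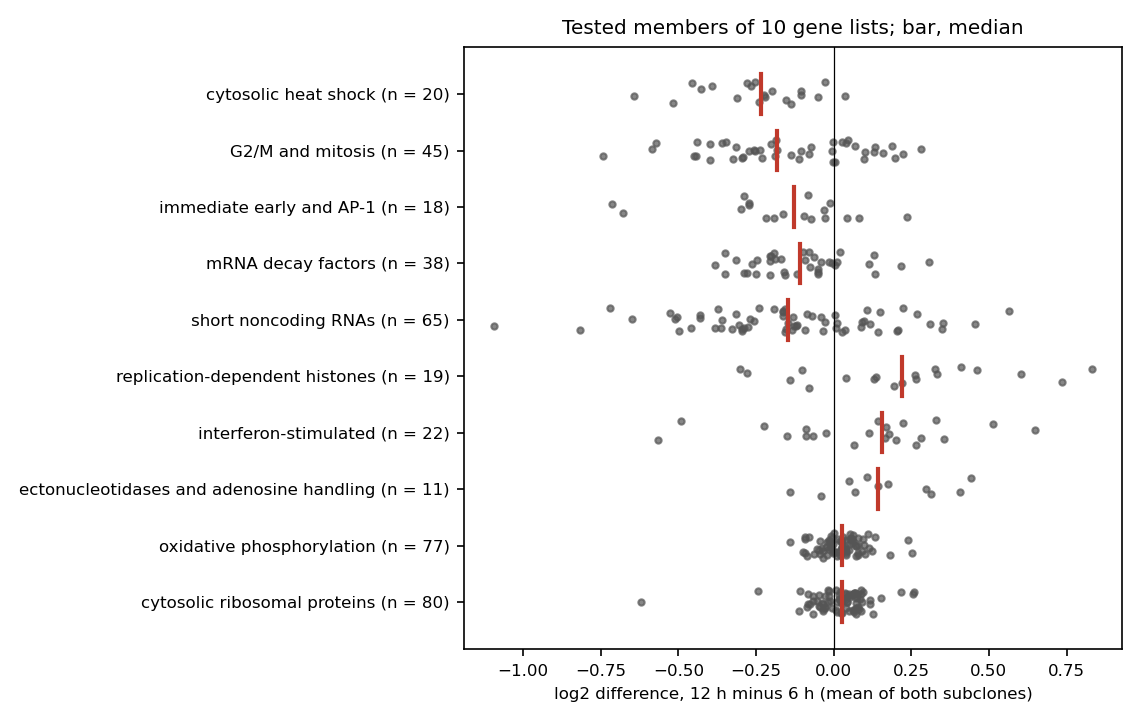
The log2 difference between ATP 12 h and ATP 6 h (12 h minus 6 h, mean of both subclones) of each tested member of 10 gene lists, with the list median as a red bar. The medians run from -0.23 (cytosolic heat shock, n = 20) to 0.22 (replication-dependent histones, n = 19), and the 77 oxidative phosphorylation and 80 ribosomal protein genes lie close to 0.

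Of 17 P2 receptor genes on the array, 2 were tested. Among the ATP arrays, P2RY11, the gene of a G protein-coupled ATP receptor, was above the limit at 6 h alone. Its entry had 19.1 and 9.12 at 12 h, against 84.7 and 87.3 at 6 h, with 41.1 and 22.3 in controls. It was at least 1.82-fold lower at 12 h, a bound that sets the 6 h mean against the limits at 12 h. It entered the test only through the 6 h arrays, so its p is not given. P2RY11 overlaps PPAN and the readthrough gene PPAN-P2RY11. PPAN had 301 and 210.1 at 12 h, against 264 and 207 at 6 h, and the readthrough entry had 59.9 and 39.3, against 40.1 and 40.4. Their mean differences were 0.10 and 0.20. PPAN differed by 0.18 in 1E8 and 0.02 in 2B4, and the readthrough entry by 0.43 and -0.03. The readthrough entry was above the limit on 1 ATP array alone. P2RX4, an ATP-gated channel gene, was above the limit on 1 array.

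Genes that handle extracellular nucleotides and adenosine lay slightly higher at 12 h. Of 24 on the array, 11 were tested. Of these, 9 were higher and 2 lower in both subclones, against 30.0% and 29.8% of all entries; 4 reached an unadjusted p under 0.05, all higher, beside 7.02% of all entries. The median was 0.14, with 0.08 without the 2B4 array at 12 h and 0.02 over all 24. SLC29A2, a nucleoside transporter gene, had 252 and 175 at 12 h, against 177 and 136 at 6 h, a difference of 0.41 ± 0.10. ADA, which encodes adenosine deaminase, had 132 and 107 at 12 h, against 91.9 and 95.2 at 6 h. NT5E, which encodes the adenosine-forming CD73, had 117 and 337 at 12 h, against 115 and 293 at 6 h. ADORA2B, an adenosine receptor gene, had 826 and 852 at 12 h, against 836 and 1027 at 6 h. None of these passed with the trend.

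RAB26, a GTPase gene of secretory vesicles, was the highest of the 24. It had 177 and 219 at 12 h, against 84.1 and 81.4 at 6 h, and 213 and 156 in controls. The 6 h arrays were the lowest of the 6. The difference was 1.11 ± 0.12 (adjusted p = 0.102, and 0.00026 with the trend). Among the other RAB genes, RAB17 differed by 0.66, RAB13 by 0.44 and RAB24 by 0.30. Of 32 tested, 13 were higher and 10 lower in both, where 30.0% and 29.8% of all tested entries were. The RAB median was 0.06. This turned to -0.06 without the 2B4 array at 12 h, and came to 0.00 without the 1E8 array at 6 h and 0.12 without that at 12 h. RPRML, a relative of the p53 target gene RPRM, had 172 and 146 at 12 h, against 93.7 and 76.5 at 6 h, and 208 in each control. Its difference was 0.79 ± 0.10. RPRM itself had 31.9 and 27.6 at 12 h, against 61.5 and 58.3 at 6 h, a difference of -0.73, and was above the limit at 6 h alone. The sister genes thus differed in opposite directions in both subclones.

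The rest of the 12 highest had differences between 0.62 and 0.82. LFNG had 267 and 133 at 12 h, against 163 and 73.9 at 6 h, with 268 and 127 in controls, close to the 12 h levels. CYSRT1, deposited as C9ORF169, had 127 and 168 at 12 h, against 73.6 and 77.8 at 6 h. ST3GAL2, a sialyltransferase gene, had 137 and 192 at 12 h, against 84.7 and 112 at 6 h. ANXA2R, deposited as C5ORF39, had 312 and 264 at 12 h, against 198 and 158 at 6 h, and 444 and 336 in controls. CCDC9B had 640.4 and 428 at 12 h, against 417 and 259 at 6 h. KRABD3, PCMTD1, NICN1, a subunit gene of the tubulin polyglutamylase, and SPACA6, a gene of sperm-egg fusion deposited as NCRNA00085, complete the set with differences of 0.62 to 0.69. CLIC3, a chloride channel gene, was higher mainly in 2B4, with 79.4 and 173 at 12 h, against 52.5 and 54.9 at 6 h. TELO2, of PI3K-like kinase maturation, was higher in 2B4 by 1.43 and in 1E8 by 0.09.

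Among the 12 lowest not yet described, C5, a complement component gene, had 229 and 303 at 12 h, against 486 and 513 at 6 h, with 282 and 368 in controls. Its difference was -0.88 ± 0.12. HAPSTR1, a stress response gene deposited as C16ORF72, had 167 and 125 at 12 h, against 292 and 255 at 6 h, a difference of -0.85 ± 0.11. HMGB3, a chromatin protein gene, had 137 and 165 at 12 h, against 241 and 303 at 6 h, a difference of -0.78 ± 0.10. MIEF1, of mitochondrial fission, had 353 and 322 at 12 h, against 561 and 497 at 6 h, a difference of -0.62 ± 0.10. For each of these 4 genes both 12 h arrays lay below both 6 h arrays.

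Genes detected at one of the ATP times alone, controls aside, give bounds, which set the brighter time's mean against the limit of the dimmer. Beside P2RY11, the largest bounds at 6 h alone, placeholder symbols aside, were MC1R (at least 1.75-fold lower at 12 h), the melanocortin receptor gene, JMJD6 (1.54), HSPA6 and HDAC4 (1.39), a class II deacetylase gene. At 12 h alone they were TSPAN15 (at least 1.51-fold higher), a tetraspanin gene, TP53INP2 (1.46), of autophagy, ASIC1 (1.41), an acid-sensing channel gene, GMPR and PLCG2 (1.40 each). Many were also above the limit without ATP. Both controls were for MC1R (60.9 and 64.6), JMJD6 (44.4 and 54.5), HSPA6 and HDAC4 (97.8 and 71.0), and for TSPAN15, ASIC1, GMPR and PLCG2. For P2RY11 and TP53INP2 the 1E8 control alone was. Of 10224 tested entries, 41 were above the limit on both arrays at 12 h and neither at 6 h, and 60 on both at 6 h and neither at 12 h. The bound exceeded 1 for 41 and 58 of these. Some bounds lay close to 1, such as 1.06 for TRAF3IP1 and 1.00 for PYM1, with the brighter arrays only just above the limit.

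The time differences of the subclones were also set against each other, in a fit over all 6 arrays. No entry passed (smallest adjusted p 0.0702), and 118 (1.15%) had an unadjusted p under 0.05 in limma. In this fit, a mean response to ATP that differed between the subclones counts as residual spread. For RAB26 the SE was 0.42, against 0.12 for the time difference. The lack of calls therefore does not show that the subclones were alike. The 8 genes named for opposite signs include RAD54L2, a helicase gene, which had 156 at 12 h against 97.6 at 6 h in 1E8, and 119 against 212 in 2B4. ISG20, an interferon-induced exonuclease gene, had 214 at 12 h against 335 at 6 h in 1E8, and 114 against 71.8 in 2B4. FLRT2 differed by 0.35 in 1E8 and -0.77 in 2B4. SH2B1, MRPS34, SIDT1, TXNDC15 and ANKRD37 had smaller opposite differences, all past 0.34 in size in each subclone.

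The median over interferon-stimulated genes was 0.01 in 1E8, against 0.23 in 2B4. Over both it was 0.16, with 0.03 without the 2B4 array at 12 h and 0.01 over all 35 on the array. Of 22 tested, 12 were higher and 4 lower in both, where 30.0% and 29.8% of all tested entries were. IRF9, a subunit gene of the interferon-activated factor ISGF3, had 296 and 345 at 12 h, against 219 and 219 at 6 h, with 185 and 139 in controls, a difference of 0.51 ± 0.11 (adjusted p = 0.15, and 0.0155 with the trend). SAMD9 differed by 0.33 and IFI6 by 0.18. IFIT2, outside the naming rule and chosen after its values were seen, had 163 at 12 h against 339 at 6 h in 1E8, and 99.6 at both times in 2B4.

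The remaining lists had the medians below, beside 0.00 over all tested entries. The 77 tested genes of oxidative phosphorylation and the 80 of cytosolic ribosomal proteins each had a median of 0.03; RPL28 was the lowest ribosomal protein gene, with 92.9 and 113 at 12 h, against 139 and 199 at 6 h, a difference of -0.62. The median was 0.02 for 26 genes of hypoxia and glycolysis, 0.05 for 21 of cholesterol synthesis, -0.04 for 14 of ERK feedback and EGF ligands, and 0.08 for 8 matrix metalloproteinases and plasminogen activators. Each of these 6 medians took either sign when 1 array was left out. Without the 2B4 array at 12 h, that of ERK feedback and EGF ligands was 0.10 and that of the metalloproteinases and plasminogen activators -0.06. PFKFB4 differed by 0.38, DUSP5 and DUSP6 by -0.36 and 0.22. MMP1, a collagenase gene, had 101 and 178 at 12 h, against 134 and 189 at 6 h. Among the ATP arrays, MMP13 was above the limit in 2B4 alone, with 50.2 at 12 h and 61.2 at 6 h. Its controls had 102 and 82.3. Of 10 growth arrest genes, CDKN2B, an inhibitor of CDK4 and CDK6, had 104 and 128 at 12 h, against 63.2 and 81.4 at 6 h, a difference of 0.58 that passed with the trend (adjusted p = 0.027). TXNIP, of glucose uptake control, had 553 and 965 at 12 h, against 668 and 1070.0 at 6 h. The growth arrest median was -0.04, and -0.14 to 0.04 with 1 array left out. The 8 tested of 18 circadian genes had a median of -0.17, which did not hold: it was 0.03 without the 1E8 array at 12 h, 0.00 without that at 6 h, -0.29 without the 2B4 array at 6 h and 0.00 over all 18. CRY1, a clock repressor gene, had 185 and 127 at 12 h, against 268 and 175 at 6 h, a difference of -0.46, and CLOCK differed by 0.33.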

How the data were processed

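Arrays were grouped by their titles. The deposited intensities are linear, with between 24.0% and 25.5% of entries below 0 on each array and nearly equal array means, which shows a background subtraction and a common scale. The software is not named in the labels or headers (not given in the sources used here). A further 6 columns of signals that were not normalized match no sample label and were not used. Values under 0 became 0, and the log2 of intensity + 16 was tested with limma 3.58.1 in R 4.3.3 (lmFit, eBayes), with the subclone as a block and Benjamini-Hochberg adjustment over entries above the limit on at least 1 ATP array. The 3270 entries named by a sequence cluster and 116 dimmer entries of a gene were left out. Names were updated through a RefSeq table for GRCh38.p14 (17757 current symbols, 3303 synonyms; the other 13534 kept the deposited name), and promoters are those of RefSeq, held for 6953 tested genes. The subclone difference was fitted over all 6 arrays.

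Named genes are the 12 highest and 12 lowest among those above the limit on all 4 ATP arrays with the same sign in both subclones, ranked by the smaller difference, the 5 largest bounds in each direction, the first 4 of each gene list by that rank, 4 genes each way with opposite signs, and 13 genes in any case; placeholder symbols were skipped. A few genes named by this rule are not reported here. The comparison, the lists and these genes were chosen with earlier results of these data known. Alternatives were other offsets, floors, filters and scalings, no block, all 6 arrays, each subclone alone, and each ATP array left out of a fit that kept the controls. The fit without the trend was tested on simulated data, where it recovered nearly all changed entries and called more unchanged ones than its threshold allows. The simulated noise had a shared spread for entries of similar intensity, without the differences in spread between genes. That recovery therefore does not tell how many changes the fit can find in these arrays. Each group is 1 array, so p-values cover only the spread among these arrays, which may be technical, and their number limits the precision. Slide and scan position are unknown here, so no batch was tested.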

Additional observations from a re-analysis of the deposited data

How the results depend on the processing

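No entry passed the adjusted threshold as reported; the counts passing, higher and lower at 12 h, were 106 and 140 with the mean-variance trend, 53 and 69 with an offset of 50, 34 and 51 with the filter on all 4 arrays, 4 and 12 with that on at least 2 arrays, 2 and 5 after scaling to 1 median, and 0 to 10 higher and 0 to 10 lower with 1 array left out of a fit that kept the controls. An offset of 4, a floor of 50, no filter, quantile normalization, no block and all 6 arrays gave 0. At an unadjusted p under 0.05 the counts, higher and lower, became 1584 and 1493 with no filter, 344 and 401 with all 6 arrays, 304 and 385 with all 6 arrays and the trend, 81 and 115 with no replicate block, and 171 to 285 and 185 to 262 with 1 array left out. The counts past 1.5-fold became 60 and 51 with an offset of 4, 4 and 11 with an offset of 50, 151 and 121 with no filter, 13 and 13 with the filter on all 4 arrays, 111 and 158 in 1E8 alone, and 176 and 161 in 2B4 alone. The subclone difference was called for 2 entries near the background, NCMAP and LOC642103, after median scaling. Of the 24 named genes, 24 passed with the trend, with an offset of 50 and with the filter on all 4 arrays, 10 with the filter on 2 arrays, 5 after median scaling and 0 with all 6 arrays. With each array left out in turn, these differences turned sign: CLOCK (-0.046 to 0.71), PDIA6 (-0.026 to 0.15), KRT8 (-0.20 to 0.30), VIM (-0.11 to 0.034), MMP13 (-0.37 to 0.18) and CCL2 (-0.36 to 0.048) without the 2B4 6 h array, CALR (-0.18 to 0.084) and H2AX (-0.28 to 0.11) without the 1E8 6 h or 2B4 12 h array, UQCRB (-0.015 to 0.38) without the 2B4 12 h array, and KRT8 and BTG1 (-0.24 to 0.0035) without the 1E8 12 h array. The fits with an array left out kept the control arrays, so control levels enter these values. On the ATP arrays alone, each of these genes but MMP13 had the same sign in both subclones. MMP13 was 0.032 in 1E8 alone. The causes of the other shifts were not tested. Differences of entries near the limit are the least precise.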

Other observations

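A set of bright genes was lower at 12 h in 1E8 and differed less from its 6 h level in 2B4. These genes were chosen here after their values were seen, and no entry passed the test of the difference between subclones. CD55, which encodes a complement decay factor of the cell surface, had 572 at 12 h against 1416 at 6 h in 1E8, and 885 against 989.7 in 2B4. PMP22, a membrane protein gene, had 709 at 12 h against 1481 at 6 h in 1E8, and 877 against 995 in 2B4. MUC13, a mucin gene, had 328 at 12 h against 718 at 6 h in 1E8, and 226 against 206 in 2B4. Its controls were lower than all ATP arrays, with 183 in 1E8 and 65.8 in 2B4. SMOX, of polyamine oxidation, and MAP7, of microtubule binding, differed by -1.30 and -1.42 in 1E8 and by -0.31 and -0.22 in 2B4. In each of these 5 genes the 1E8 array at 6 h stood above the 1E8 array at 12 h and the 1E8 control. Whether 1 array or the subclone sets this pattern cannot be told apart with 1 array per group.

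Several genes past 1.5-fold in both subclones lay outside the naming rule because they were not above the limit on all 4 arrays, and were chosen here after their values were seen. WNT5A, the gene of a non-canonical Wnt ligand, differed by -0.74 in 1E8 and -1.07 in 2B4, with 58.1 at 12 h against 107.8 at 6 h in 1E8. THBS1, which encodes the matrix protein thrombospondin 1, had 78.8 and 3.67 at 12 h, against 152 and 18.8 at 6 h. It was above the limit in 1E8 alone. ETS2, a transcription factor gene, had 30.8 and 52.3 at 12 h, against 73.1 and 107 at 6 h. On the higher side, ZBTB7B, a zinc finger gene, had 92.9 and 158 at 12 h, against 44.9 and 54.1 at 6 h. CHMP6, of the ESCRT machinery, had 57.7 and 65.7 at 12 h, against 27.7 and 15.4 at 6 h. KRT15, a keratin gene, had 58.2 and 66.9 at 12 h, against 29.6 and 35.6 at 6 h. The brightest of the 55 entries past 1.5-fold in both subclones has the placeholder name LOC399988, with 1395 and 1329 at 12 h, against 2150.1 and 2091 at 6 h.

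The entries past 1.5-fold in both subclones belonged to shorter genes than tested entries in general. The median gene length was 7.01 kb for 22 of the 28 higher entries and 14.1 kb for 24 of the 27 lower ones with a length in the RefSeq table, against 27.6 kb over 8598 tested entries. Median promoter GC was 61.3% (14 higher entries) and 62.0% (21 lower entries), against 65.3%. The dimness of these entries, given with the counts above, moves with the same sets, and its part in the lengths was not tested.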
